A study of Mus musculus with 12 samples.

Results

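Pigr encodes the polymeric immunoglobulin receptor, the epithelial membrane protein that carries polymeric antibodies out of tissue into secretions. It is 1 of 52636 gene identifiers in the count table and was found there by its symbol. The gene was picked because its transcript was much higher in treated tumors and stayed at a stable, high level in liver. Those same values are given here as a description without a test.

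The receptor binds IgA and IgM polymers that contain the joining chain on the basolateral side of an epithelial cell. It crosses the cell in vesicles, and its outer part is cut off at the apical side as secretory component. Rodent hepatocytes use it to move IgA into bile, and the lactating mammary epithelium uses it to move IgA into milk. Interferon gamma, TNF, IL-1, IL-4 and IL-17 are known to raise its transcription in epithelial cells.

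The mice were female FVB/NJ animals carrying Fo5 tumors, pieces of a mammary tumor from founder 5 of an MMTV-HER2 transgenic line (human HER2 driven by a mammary tumor virus promoter), grown in the mammary fat pad. The TDB groups received 5 mg/kg of anti-HER2/CD3, a bispecific antibody that links HER2 on tumor cells to CD3 on T cells (T cell-dependent bispecific, TDB), once into a tail vein. The vehicle groups received the histidine acetate and sucrose buffer alone. Tumor and liver were taken at 24 h, and bulk RNA was sequenced from tumor TDB, tumor vehicle, liver TDB and liver vehicle, with 3 libraries per group. All 4 groups therefore come from tumor-bearing mice, and no tumor-free liver or normal mammary gland stands beside them. All tumors derive from 1 transplanted line, and the ages of the animals were not given in the sources used here.

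On GRCm38, Pigr (ENSMUSG00000026417) is a protein-coding gene on the plus strand of chromosome 1, from base 130826684 to base 130852249. Its main transcript has 11 exons, 3849 bases and a coding length of 2313 bases. No annotated gene overlaps its span on either strand. The sequence before its start and the first bases of its first exon are shown because several of the transcription factors described below are known to act there. Both are from RefSeq (GRCm38.p6) and run 5′ to 3′ on the plus strand, at chr1:130826434-130826683 and chr1:130826684-130826713. Capitals mark an E-box in the upstream piece and the reverse complement of an IRF-type match in the exon piece.
Pigr upstream: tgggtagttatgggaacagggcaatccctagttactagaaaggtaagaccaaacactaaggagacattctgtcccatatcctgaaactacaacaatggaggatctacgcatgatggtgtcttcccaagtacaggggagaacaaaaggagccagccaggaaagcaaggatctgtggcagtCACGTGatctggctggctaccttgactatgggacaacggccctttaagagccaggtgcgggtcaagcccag
Pigr start of exon 1: aaaacagTTTCAGTTTtgacaatagtcacc

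5 motifs were searched on both strands of the window from 250 bases before to 50 bases after the start, where the first transcribed base counts as 1. CACGTG, the E-box that USF factors bind, was found at -71. The same letters stood in 7.15% of 32851 mouse promoter windows of the same length. The shorter IRF form AAANNGAAA matched at 8 as TTTCAGTTT on the opposite strand, a motif held by 10.6% of the windows. The full interferon-stimulated response element GAAANNGAAA did not occur, against 3.44% of all windows with at least 1 match. The STAT6 form TTCNNNNGAA did not occur, against 6.95% of all windows with one. The loose NF-kB form GGGNNNNNCC matched at 3 positions, -232, -13 and -12, the last 2 of which overlap, and 50.8% of all windows had a match. In the human gene an IRF1-binding element has been described in exon 1 and a USF-binding E-box in the promoter. The mouse matches are letters in a sequence and not measured binding.

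Pigr was high in TDB tumors, TDB livers and vehicle livers and low in vehicle tumors. Its counts were 18972, 34345 and 10933 in TDB tumors 1 to 3, against 224, 177 and 174 in vehicle tumors 1 to 3. They were 27103, 29205 and 44968 in TDB livers 1 to 3, against 23632, 14422 and 31272 in vehicle livers 1 to 3. Every TDB tumor lay far above every vehicle tumor, while the liver groups overlapped.

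In CPM, counts scaled to the same library total of 1000000, the TDB tumors held 853, 1168 and 513, against 10.8, 8.44 and 7.93 in vehicle tumors. The means were 845 ± 328 CPM in TDB tumors and 9.05 ± 1.52 CPM in vehicle tumors (SD, n = 3 each), a ratio of 93.4. The lowest TDB tumor still stood 47.6-fold above the highest vehicle tumor. TDB tumor 2 was the highest and TDB tumor 3 the lowest of the treated tumors, a wider spread than among vehicle tumors. The edgeR log2 fold change was 6.68 (SE 0.4), number 65 from the largest rise down among 15454 genes tested in tumor. Without TDB tumor 2 it was 6.37, and without TDB tumor 3 it was 6.94.

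In liver the TDB libraries held 1125, 1143 and 2188 CPM, against 1280.2, 738 and 1540.3 CPM in vehicle livers. The means were 1485 ± 609 CPM in TDB livers and 1186 ± 409 CPM in vehicle livers (SD, n = 3 each), and the ratio was 1.25. The log2 fold change was 0.21 (SE 0.33), smaller than its error. TDB liver 3 was the highest of all libraries, and it stood apart in other ways, with 2.05% mitochondrial counts against 0.847% to 1.28% in the other livers. Without it the ratio was 0.956 and the log2 fold change -0.11. Without vehicle liver 2 the log2 fold change was -0.02.

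The tumor effect minus the liver effect was 6.44 on the log2 scale (SE 0.54), number 23 from the highest value down among 16557 genes. As both effects entered the choice of the gene, the difference is a description too. In CPM the TDB tumor mean was 56.9% of the TDB liver mean, while the vehicle tumor mean was 0.763% of the vehicle liver mean. Within libraries, Pigr ranked 99, 66 and 199 by counts among all genes in TDB tumors, against 9694, 10129 and 10394 in vehicle tumors. In livers it ranked 104, 101 and 49 with TDB and 88, 168 and 65 with vehicle. The gain in mean CPM, TDB minus vehicle tumors, was 836 CPM and number 25 among all genes. A rise in the transcript per cell and a rise in the number of cells that make it cannot be told apart in bulk RNA.

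**Figure D1:**
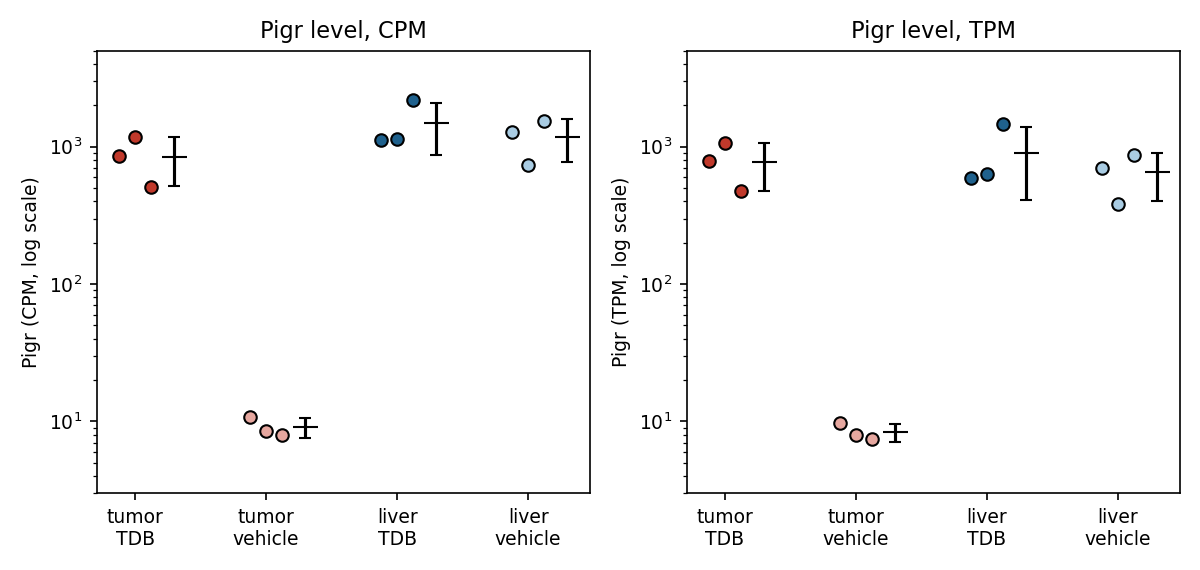
Pigr in each library (points) with the mean and SD of 3 libraries per group (bars), as CPM on the left and as TPM, the length-corrected form, on the right, both on log axes. The TDB tumors lie between 513 and 1168 CPM and the vehicle tumors between 7.93 and 10.8 CPM, while both liver groups lie between 738 and 2188 CPM.

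The order of the group means in CPM was liver TDB, liver vehicle, tumor TDB and tumor vehicle. On a scale that corrects for gene length (TPM), the means were 776 ± 296 in TDB tumors, 8.36 ± 1.25 in vehicle tumors, 894 ± 487 in TDB livers and 652 ± 252 in vehicle livers (SD, n = 3 each). There the TDB tumors came before the vehicle livers. Neighbours among the 3 high groups overlapped on both of these scales. With TMM scaling over all 12 libraries, chosen after the data were seen, TDB tumors ranged from 344 to 808 CPM and no longer overlapped either liver group. TDB livers then ranged from 1632 to 2919 CPM and vehicle livers from 1186 to 2365 CPM. Whether treated tumors reached the level of liver therefore depends on how tumor and liver libraries are scaled to each other. The gap between vehicle tumors and the other groups does not, since vehicle tumors ended at 7.04 CPM on that scale.

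Hepatocyte RNA was measured in the tumors, since liver held the most Pigr. Alb, the liver's albumin gene, had 4.59, 2.45 and 0.751 CPM in TDB tumors, against 8.94, 33.2 and 0.0455 CPM in vehicle tumors. It had 93011, 79609 and 93024 CPM in TDB livers, against 112272, 111509 and 142983 CPM in vehicle livers. The summed level of 10 hepatocyte markers was 7.59 to 20.8 CPM in TDB tumors, against 12.7 to 59.7 CPM in vehicle tumors. No treated tumor exceeded the highest vehicle tumor in this sum, and the groups overlapped. The part of hepatocyte RNA in tumor Pigr was not tested. Pigr counts per Alb count were 186, 477 and 683 in TDB tumors, against 1.2, 0.254 and 174 in vehicle tumors. In TDB livers they were 0.0121, 0.0144 and 0.0235, against 0.0114, 0.00662 and 0.0108 in vehicle livers. TDB livers had the higher ratio in every library, with lower Alb and overlapping Pigr levels.

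**Figure D2:**
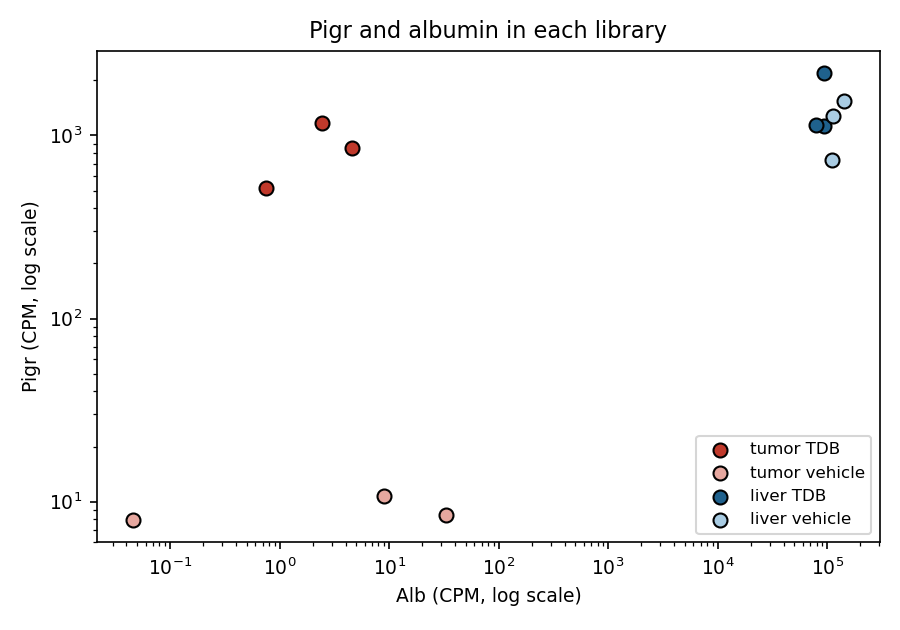
Pigr against Alb in each of the 12 libraries, in CPM on log axes. The 3 TDB tumors combine Pigr of 513 to 1168 CPM with Alb of 0.751 to 4.59 CPM, the vehicle tumors hold 7.93 to 10.8 CPM of Pigr over an Alb range of 0.0455 to 33.2 CPM, and the livers lie at the upper right.

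Tumor libraries carried mammary and epithelial genes at high levels. Erbb2, the mouse gene of the same receptor as the transgene, fell to 342 ± 20.6 CPM in TDB tumors, against 559 ± 22.9 CPM in vehicle tumors (SD, n = 3 each; edgeR log2 fold change -0.58, adjusted p 0.00062), a call that ended when all 12 libraries were fitted together (adjusted p 0.1). How reads of the human transgene were counted is not given, so their part in the Erbb2 counts is not known. Epcam, an epithelial adhesion molecule, was at 1149 ± 96.8 CPM in TDB tumors and 1263 ± 133 CPM in vehicle tumors. Library totals were 18460159 to 29396324 counts. In tumor, edgeR called 28.8% of 15454 genes at an adjusted p under 0.05, 15.8% higher and 13.1% lower with TDB. In liver it called 0.535% of 13657 genes, 0.513% higher and 0.022% lower. The difference of both effects was called for 2.49% of 16557 genes, with the tumor effect above the liver effect in 1.83% and below it in 0.658%. These shares are the background for every count below. To be tested in tumor, a gene needed about 0.462 CPM in at least 3 libraries. Among the listed and neighbouring genes, 22 met this in all 3 TDB tumors but in fewer than 3 vehicle tumors, so they were tested because of the group in which they were high. Such genes are left out of the counts and medians given for tumor by list. No vehicle tumor reached the value for 13 of them, and those named here are given for tumor by counts or CPM without a p. For the others of the 22, any call in tumor is a description only. Some of the 22 carry a p for the difference between tissues. With upper quartile scaling, 2075 tumor genes were called higher and 2991 lower, against 2437 higher and 2019 lower with the TMM scaling used here. The median log2 fold change over all genes tested was -0.02 in tumor and 0.04 in liver.

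The receptor's cargo is protein, and only transcripts of the genes of IgA, IgM and the joining chain were measured here. Of these 3 genes, Ighm alone reached the filter's value in all tumors, and it rose. None of the 3 passed in liver, where their median log2 fold change was -0.8. Ighm, the IgM heavy chain gene, had 9.67, 7.11 and 9.85 CPM in TDB tumors, against 4.33, 2.53 and 3.6 CPM in vehicle tumors. The groups did not overlap, and the edgeR fit put the change at 1.48 on the log2 scale (SE 0.22, adjusted p 0.0014). Jchain, which joins IgA or IgM units and is the part that the receptor needs, had 0.764, 3.54 and 0.61 CPM in TDB tumors, against 0.192, 0 and 0 CPM in vehicle tumors. That is 134 counts over TDB tumors and 4 over vehicle tumors, and no vehicle tumor reached the filter's value.

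Igha, the IgA heavy chain gene, had 1.53, 8.47 and 1.5 CPM in TDB tumors, against 0.817, 0.0954 and 0.228 CPM in vehicle tumors. It did not pass in edgeR (log2 fold change 3.49, SE 1.06), though it did in DESeq2 and when all 12 libraries were fitted together. With 1 vehicle tumor at the filter's value, these outcomes are a description only. Among tumors, TDB tumor 2 was the highest library for Igha, for Jchain and for Pigr, but for Ighm it was the lowest of the treated tumors. It was also the highest tumor for genes outside the cargo, such as B2m and Irf1. In livers Igha was at 0.581, 3.21 and 0.973 CPM with TDB, against 3.63, 1.43 and 4.19 CPM with vehicle, and the groups overlapped. The difference of tumor and liver effects passed for Ighm (1.47, SE 0.31, edgeR adjusted p 0.027). It passed for Jchain too (5.47, SE 1.23), a description only, since no vehicle tumor reached the filter's value. Both calls ended without some single libraries, as given under the results for a closer look. All cargo genes together summed to 12 to 19.1 CPM in TDB tumors, against 2.62 to 5.34 CPM in vehicle tumors. Most of the 12 CPM in TDB tumors 1 and 3 was Ighm, at 9.67 and 9.85 CPM. The amount of IgA or IgM protein in the tissues was not measured.

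Cells that make the cargo were read through plasma cell and B cell genes. Of 14 plasma cell genes, 4 reached the filter's value in all tumors, where 1 rose, 1 fell and 2 did not pass, and none of 8 tested passed in liver. Of those 4, Txndc5 and Derl3 stood at 331 and 35.6 CPM in vehicle tumors, where Igkc was at 0.394 CPM. This count therefore says little about plasma cells. Ighg1, an IgG heavy chain gene named after its values were seen, had 0.225, 1.8 and 0.141 CPM in TDB tumors. That is 61 counts, against 3 over vehicle tumors, and it was not tested there. Igkc, the kappa light chain constant gene, had 3.28, 9.63 and 2.06 CPM in TDB tumors, against 0.673, 0.191 and 0.319 CPM in vehicle tumors (log2 fold change 3.8, SE 0.77). Only 1 vehicle tumor was at the filter's value, so the call of Igkc as higher is a description only. This call ended without vehicle tumor 3 (edgeR adjusted p 0.053) and without the filter on low counts (0.067). Prdm1, a transcription factor of plasma cells that activated T cells also express, was at 29.8 ± 5.12 CPM in TDB tumors and 16.7 ± 3.1 CPM in vehicle tumors (n = 3 each; log2 fold change 0.97, edgeR adjusted p 0.0037). With all 12 libraries in one fit Prdm1 did not pass (0.28). Txndc5, a disulfide isomerase of secretory cells, fell by 0.36 on the log2 scale (edgeR adjusted p 0.033). Its call ended without TDB tumor 2 or 3 or vehicle tumor 1 or 2 (0.1 to 0.12) and with all 12 libraries in one fit (0.19).

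Among genes of that list that did not pass in tumor, Derl3, which acts in disposal of misfolded secretory proteins, had 32.8 ± 3.27 CPM in TDB tumors and 35.6 ± 6.48 CPM in vehicle tumors. Pou2af1, a B cell coactivator, was at 0.891 ± 0.0502 CPM in TDB tumors and 0.748 ± 0.27 CPM in vehicle tumors (SD, n = 3 each). In livers Derl3 was at 22.7 ± 4.87 CPM with TDB and 3.97 ± 2.16 CPM with vehicle (log2 fold change 2.4, edgeR adjusted p 0.13). It passed there with DESeq2 (7.6e-05), without the filter (0.017), without TDB liver 3 (0.038) and with all 12 libraries in one fit (0.0072). B cell markers were scarce in tumor, where 8 markers summed to 3.98 to 4.05 CPM in TDB tumors, against 0.62 to 1.69 CPM in vehicle tumors. Cd22, an inhibitory B cell receptor, was the 1 marker abundant enough to test (log2 fold change 1.47). With 2 of 3 vehicle tumors at the filter's value, its call as higher is a description only. Its call ended without any 1 of the 3 TDB tumors, without vehicle tumor 1 (edgeR adjusted p 0.063 to 0.11) and with all 12 libraries in one fit (0.066). The number of B cell markers called in tumor was 5 without the filter, 3 with all 12 libraries in one fit, 2 with DESeq2 and 0 to 2 without 1 library. Whether these cells take part in the Pigr values was not tested.

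Tnf, Il1b and Il1a, cytokine genes whose products induce the receptor, rose in treated tumors. Of 10 inducers listed, these 3 reached the filter's value in all tumors, and none of 4 tested in liver passed. Ifng, Lta and Ltb reached it in all TDB tumors and in at most 1 vehicle tumor. Ifng, made by activated T and NK cells, had 6.07, 8.27 and 7.7 CPM in TDB tumors and no count in any vehicle tumor. Against a floor of 3 counts over the vehicle group it was at least 158-fold higher. Livers held 12 Ifng counts with TDB and 3 with vehicle, too few to test there.

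Tnf had 9.04, 13.1 and 8.73 CPM in TDB tumors, against 1.15, 1.14 and 1.23 CPM in vehicle tumors (log2 fold change 3.26, SE 0.22, edgeR adjusted p 1.3e-05). Il1b had 10.2, 12.7 and 13.4 CPM in TDB tumors, against 1.44, 0.715 and 2.73 CPM in vehicle tumors (log2 fold change 3.01, SE 0.4, edgeR adjusted p 0.0016). Neither gene overlapped between the tumor groups. Lta and Ltb, the lymphotoxin genes, had log2 fold changes of 3.44 (SE 0.36) and 3.07 (SE 0.38). Il1a, the alpha form of interleukin 1, had a log2 fold change of 1.24 (SE 0.36, edgeR adjusted p 0.034). Its call ended without any 1 TDB tumor, without vehicle tumor 1 (0.057 to 0.12) and with all 12 libraries in one fit (0.071). In livers Tnf was at 0.868 ± 0.37 CPM with TDB and 0.494 ± 0.174 CPM with vehicle, and Il1b at 7.54 ± 0.791 CPM with TDB and 4.5 ± 0.476 CPM with vehicle (SD, n = 3 each), with neither past the threshold. Both TNF and IL-1 beta transcripts thus differed between tissues in their response, with differences given below under the results for a closer look.

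The remaining inducers were barely detected. Il4, a T helper 2 cytokine, had 28 counts over the TDB tumors and 0 over vehicle tumors, at least 8.15-fold higher by the same floor. Il17f had 19 counts over TDB tumors and 0 over vehicle tumors (at least 5.53-fold), and Il17a 6 with TDB and 0 with vehicle (at least 1.75-fold). Il13 had 20 counts in TDB tumors and 1 in vehicle tumors, 17.5-fold by counts (95% interval 2.79 to 724). These 4 were not tested.

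Receptors and adaptors of those signals changed less. Of 13 tested in tumor, 8 rose and none fell, with a median log2 fold change of 0.57, and none of 13 passed in liver. Tlr3, a sensor of double-stranded RNA that raises the receptor in human gut epithelial cells, was at 202 ± 2.82 CPM in TDB tumors and 68.5 ± 2.73 CPM in vehicle tumors (SD, n = 3 each; log2 fold change 1.69, edgeR adjusted p 5e-07). Tnfrsf1b, a TNF receptor, was at 28.9 ± 0.541 CPM in TDB tumors and 9.96 ± 2.91 CPM in vehicle tumors (1.67, edgeR adjusted p 0.00071). Il4ra, shared by the IL-4 and IL-13 receptors, changed by 1.05 (edgeR adjusted p 0.00011) and Myd88, the adaptor of IL-1 and Toll-like receptors, by 0.81 (0.00025). Ltbr, the lymphotoxin beta receptor, had 97.6 ± 5.73 CPM in TDB tumors and 102 ± 15.9 CPM in vehicle tumors. Il13ra1, the second chain for IL-13, was at 67.3 ± 5.21 CPM in TDB tumors and 49.5 ± 12.8 CPM in vehicle tumors and did not pass (edgeR adjusted p 0.055), though it did without vehicle tumor 3 (0.00067), with DESeq2 (0.0052) and with limma-voom (0.027).

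Of 9 transcription factors described at the human or mouse gene and tested in tumor, 6 rose, none fell and 3 did not pass, with a median log2 fold change of 0.7. In liver 1 of 10 rose. Irf1, the interferon regulatory factor that binds the human gene, had 833, 964 and 832 CPM in TDB tumors, against 37.6, 38.2 and 35.9 CPM in vehicle tumors. It had 139, 156 and 224 CPM in TDB livers, against 43.8, 41.5 and 50.8 CPM in vehicle livers. The groups were apart in both tissues, with log2 fold changes of 4.69 (SE 0.1, edgeR adjusted p 8.5e-09) in tumor and 1.81 (SE 0.22, 0.018) in liver. The tumor effect was larger by 2.84 (SE 0.24, edgeR adjusted p 8.6e-05), a call kept in every alternative. The liver call ended without TDB liver 2 (0.086) or without vehicle liver 1, 2 or 3 (0.2, 0.14 and 0.14).

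The other factors moved by smaller amounts. Irf2, a second IRF member, was at 112 ± 9.56 CPM in TDB tumors and 44 ± 0.278 CPM in vehicle tumors (log2 fold change 1.49, edgeR adjusted p 3.2e-06). The NF-kB genes Nfkb2, Relb and Nfkb1 changed by 0.87, 0.7 and 0.53 (edgeR adjusted p 0.00049, 0.0027 and 0.00035). Usf1, an E-box factor, changed by 0.81 (edgeR adjusted p 0.00017). For these 4 the call ended when all 12 libraries were fitted together (Nfkb2 0.15, Relb 0.11, Nfkb1 0.37, Usf1 0.12). Rela, the p65 subunit of NF-kB, was at 49.2 ± 2.45 CPM in TDB tumors and 46.9 ± 1.12 CPM in vehicle tumors. Stat6, the factor behind IL-4, was at 180.4 ± 4.71 CPM in TDB tumors and 189.5 ± 5.4 CPM in vehicle tumors, and Usf2 at 30.4 ± 2.4 CPM in TDB tumors and 33.3 ± 3.24 CPM in vehicle tumors, and none of these 3 passed. Hnf4a, a hepatocyte factor described at the human gene, was too low to test in tumor and did not pass in liver (log2 fold change 0.21, edgeR adjusted p 0.84).

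**Figure D3:**
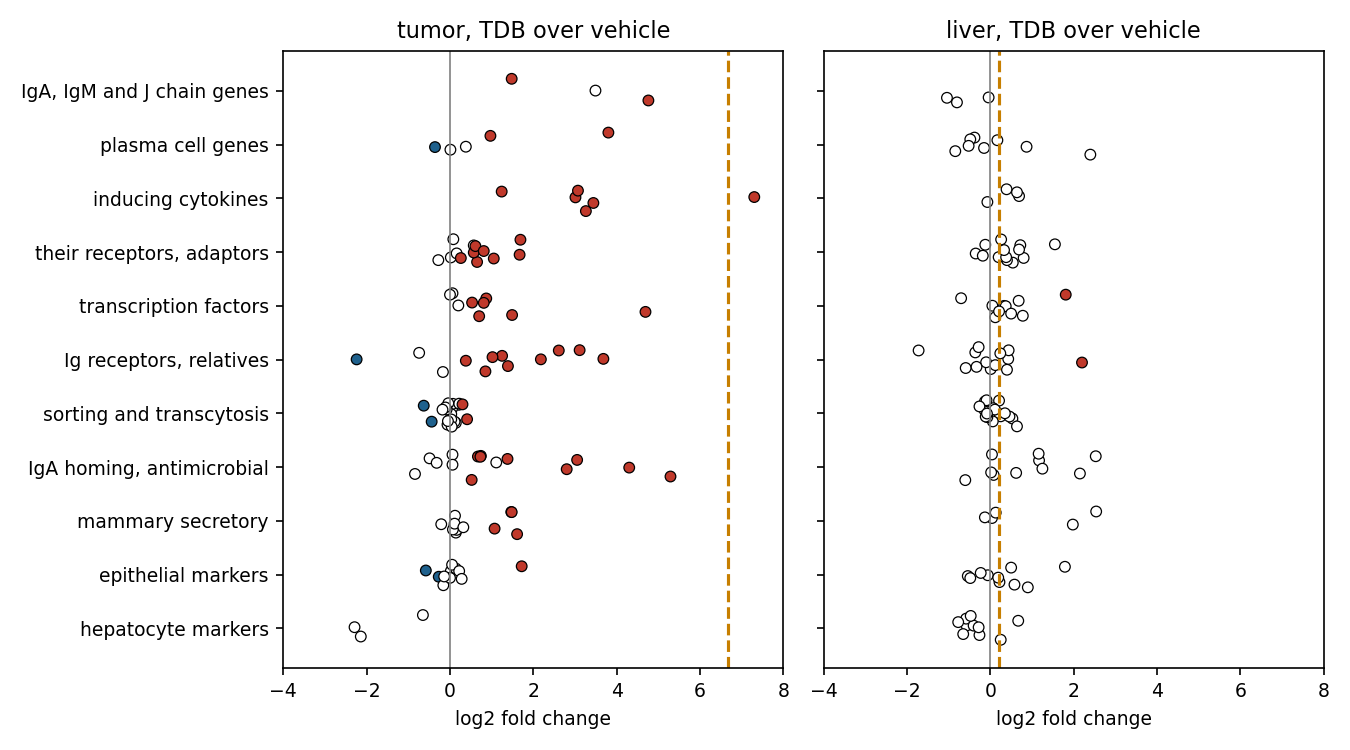
Log2 fold change of TDB over vehicle for each tested gene of 11 lists (points), in tumor on the left and liver on the right. Red points passed as higher and blue points as lower at an edgeR adjusted p under 0.05, white points did not pass, Ifng is drawn at its lower bound, genes that TDB tumors alone brought past the filter are included, and the dashed line marks Pigr at 6.68 in tumor and 0.21 in liver.

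Other receptors of antibody transport and relatives of Pigr in sequence were next. Of 10 at the filter's value in all tumors, 7 rose, 1 fell and 2 did not pass, with a median of 0.94, and 1 of 13 rose in liver. B2m, the light chain of MHC class I molecules and of the neonatal Fc receptor, was at 2848 ± 591 CPM in TDB tumors and 244 ± 61.6 CPM in vehicle tumors (log2 fold change 3.68, edgeR adjusted p 6.4e-05). Fcgrt, the heavy chain of that receptor, which carries IgG, was at 19 ± 1.48 CPM in TDB tumors and 23.4 ± 5.62 CPM in vehicle tumors and did not pass (edgeR adjusted p 0.5). In livers Fcgrt was at 224 ± 38.9 CPM with TDB and 269 ± 40.1 CPM with vehicle (SD, n = 3 each).

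The nearest relatives lie beside Pigr on chromosome 1 and stayed close to 0. Fcmr, the IgM receptor of lymphocytes, had 37 counts over TDB tumors and 17 over vehicle tumors, and 24 counts in each liver group. Fcamr, which binds IgA and IgM, had 1 count over TDB tumors, 0 over vehicle tumors, 0 over TDB livers and 1 over vehicle livers. Among the CD300 receptors, leukocyte proteins with a Pigr-like Ig domain, Cd300e had 76 counts over TDB tumors and 8 over vehicle tumors, and Cd300lf rose by 2.61 (SE 0.26, edgeR adjusted p 0.00016) in tumor. Cd300lg, an endothelial member, was the 1 gene of the list that fell, to 1.5 ± 0.309 CPM in TDB tumors against 7.72 ± 0.911 CPM in vehicle tumors (log2 fold change -2.24, edgeR adjusted p 9.4e-05). Cd300lf also passed in liver (2.2, edgeR adjusted p 0.047), a call that ended without TDB liver 1 or 2 or without vehicle liver 1, 2 or 3 (0.063 to 0.28) and with either other scaling (0.051 and 0.055). Trem2, a myeloid receptor, had 5.39 ± 1.47 CPM in TDB tumors and 9.85 ± 2.35 CPM in vehicle tumors and did not pass (edgeR adjusted p 0.054), though it did in 6 of 13 alternatives (0.02 to 0.046).

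Genes of the machinery that sorts the receptor across the cell were counted next. Of 20 genes tested in tumor, 2 rose, 2 fell and 16 did not pass, with a median log2 fold change of 0.03, beside 28.8% called among all genes. With 20 genes, this count cannot be set apart from that share. None of 18 passed in liver. The genes that rose were Exoc3 and Exoc2, subunits of the exocyst that tethers vesicles, by 0.41 (edgeR adjusted p 0.0047) and 0.3 (0.015). Those that fell were the epithelial recycling GTPases Rab25, at 98.5 ± 7.94 CPM in TDB tumors and 147 ± 9.81 CPM in vehicle tumors (-0.44, edgeR adjusted p 0.0033), and Rab17 (-0.63, 0.046). With all 12 libraries in one fit none of these 4 passed (0.23 to 0.61). The Exoc2 call also ended without TDB tumor 2 (0.073), and the Rab17 call without TDB tumor 2 or 3 or vehicle tumor 1 or 3 (0.067 to 0.16), without the filter (0.097) and with median-of-ratios size factors (0.051). The 2 most abundant genes that did not pass were Rab3d, a GTPase of regulated secretion, at 301 ± 1.99 CPM in TDB tumors and 299 ± 11.3 CPM in vehicle tumors, and Vps35, a retromer subunit, at 259 ± 3.03 CPM with TDB and 275 ± 2.55 CPM with vehicle (SD, n = 3 each).

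IgA homing and class-switch factors and epithelial antimicrobial genes form a mixed list of 20. Of 12 at the filter's value in all tumors, 6 rose, none fell and 6 did not pass, with a median of 0.6, and none of 10 passed in liver. Ccr9 and Itgb7 encode a chemokine receptor and an integrin chain of gut-homing lymphocytes. Ccr9 had 96 counts over TDB tumors and 2 over vehicle tumors, 41.9-fold by counts (95% counting interval 11.3 to 351). Itgb7 was at 4.32 ± 0.777 CPM in TDB tumors and 0.237 ± 0.222 CPM in vehicle tumors (log2 fold change 4.3). Tnfsf13b, the B cell survival factor BAFF, rose by 2.8 (SE 0.33, edgeR adjusted p 0.00042). Saa3, an acute-phase protein of epithelium and macrophages, was at the filter's value in 2 of 3 vehicle tumors and had a log2 fold change of 3.05. Its call as higher is thus a description only. That call ended without any 1 TDB tumor or without vehicle tumor 1 (edgeR adjusted p 0.075 to 0.14) and without the filter (0.099). In livers Saa3 was at 74 ± 53.1 CPM with TDB and 15.1 ± 11.3 CPM with vehicle (SD, n = 3 each; edgeR adjusted p 0.39) and passed with DESeq2 (0.032).

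Ltf, the milk iron-binding protein lactoferrin, was at 4647 ± 2242 CPM in TDB tumors and 2376 ± 2065 CPM in vehicle tumors (SD, n = 3 each) and did not pass (edgeR adjusted p 0.4). Lbp, which binds bacterial lipopolysaccharide, was at 988 ± 52.7 CPM in TDB tumors and 1356 ± 249 CPM in vehicle tumors (edgeR adjusted p 0.089). It passed as lower with upper quartile scaling (0.042), without the filter (0.032) and with DESeq2 (0.043). In livers Lbp did not pass (log2 fold change 1.16, edgeR adjusted p 0.18), but passed as higher with DESeq2 (0.017) and with all 12 libraries in one fit (0.032).

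The tumor's epithelial and milk genes were set beside Pigr because mammary epithelium makes the receptor in lactation. Of 12 mammary secretory genes 4 rose in tumor, none fell and 8 did not pass, with a median of 0.15. Xdh, an enzyme of milk fat secretion, was at 1749.9 ± 163 CPM in TDB tumors and 629 ± 67.9 CPM in vehicle tumors (log2 fold change 1.61, edgeR adjusted p 1.4e-05). In livers Xdh was at 153 ± 85.1 CPM with TDB and 35.3 ± 8.47 CPM with vehicle (edgeR adjusted p 0.091) and passed with DESeq2 (7.7e-05), without the filter (0.0084), without TDB liver 1 (0.037) or 3 (0.02) and with all 12 libraries in one fit (0.0056). Wap, whey acidic protein, was at 20.8 ± 4.96 CPM in TDB tumors and 8.23 ± 1.68 CPM in vehicle tumors (1.48, edgeR adjusted p 0.0013). The caseins Csn2 and Csn1s1 rose by 1.47 and 1.07 (edgeR adjusted p 0.039 and 0.02). The Csn2 call ended without TDB tumor 2 or 3 or vehicle tumor 2 or 3 (0.076 to 0.13) and without the filter (0.12). The Csn1s1 call ended without any 1 TDB tumor or without vehicle tumor 3 (0.056 to 0.069), without the filter (0.1) and with all 12 libraries in one fit (0.13). Csn3, the most abundant casein here, was at 20835 ± 470.4 CPM in TDB tumors and 20651 ± 2055 CPM in vehicle tumors, and Btn1a1, a milk fat globule protein, at 686 ± 118 CPM with TDB and 699 ± 175 CPM with vehicle.

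Of 11 epithelial markers tested in tumor, 1 rose, 2 fell and 8 did not pass, with a median of 0.02. Elf3, an epithelial transcription factor, was at 49.9 ± 9.43 CPM in TDB tumors and 16.6 ± 0.814 CPM in vehicle tumors (log2 fold change 1.72, edgeR adjusted p 5.6e-05). In livers Elf3 was at 4.97 ± 0.972 CPM with TDB and 1.33 ± 0.402 CPM with vehicle (edgeR adjusted p 0.083) and passed with DESeq2 (0.00058), without the filter (0.034) and with all 12 libraries in one fit (0.003). Besides Erbb2, Krt8, a keratin of simple epithelium, fell by 0.27 (edgeR adjusted p 0.048). The Krt8 call ended without TDB tumor 2 or 3 or vehicle tumor 1 or 2 (0.13 to 0.16) and with median-of-ratios size factors (0.053), limma-voom (0.051) or all 12 libraries in one fit (0.29). Krt18, the partner keratin, was at 792 ± 40.2 CPM in TDB tumors and 970 ± 98.9 CPM in vehicle tumors and did not pass (edgeR adjusted p 0.25). The 12 epithelial markers summed to 4268 to 4614 CPM in TDB tumors, against 4417 to 5274 CPM in vehicle tumors, and the groups overlapped. Whether a change in epithelial content takes part in the Pigr values was not tested.

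Bile duct genes were counted as well. Of 4 cholangiocyte markers tested in tumor, 1 rose, Sox9, a progenitor and duct factor (log2 fold change 0.36, edgeR adjusted p 0.008), whose call ended with all 12 libraries in one fit (0.69), and none of 6 passed in liver. Spp1, osteopontin, was at 7659.8 ± 1906 CPM in TDB tumors and 6893 ± 3963 CPM in vehicle tumors and did not pass (edgeR adjusted p 0.68), though it did without vehicle tumor 3 (0.028). In livers the 8 markers summed to 49.6 to 53.5 CPM with TDB, against 57.6 to 65.2 CPM with vehicle.

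T cell and macrophage genes were set beside Pigr in the same libraries. The 8 T cell markers summed to 14.6 to 23.9 CPM in TDB tumors, against 2.86 to 5.77 CPM in vehicle tumors. Only Lck and Cd4 reached the filter's value in all tumors. Lck, a T cell kinase named after its values were seen, rose by 2.32 (SE 0.33, edgeR adjusted p 0.0011) on the log2 scale, and Cd4 did not pass (edgeR adjusted p 0.25). Cd3e, a CD3 chain, had 171 counts over TDB tumors and 0 over vehicle tumors, at least 49.8-fold higher. Cd3d had 109 counts over TDB tumors and 3 over vehicle tumors, 31.7-fold by counts (95% counting interval 10.6 to 156). Cd8a had 205 counts over TDB tumors and 5 over vehicle tumors, and Cd2 had 105 over TDB tumors and 4 over vehicle tumors. In livers the same markers summed to 23.3 to 32.6 CPM with TDB, against 11.5 to 12.4 CPM with vehicle, and Cd8a alone passed (log2 fold change 2.98). With 1 of 3 vehicle livers at the filter's value there, this call is a description only. That liver call ended without TDB liver 2 (edgeR adjusted p 0.16) or vehicle liver 1, 2 or 3 (0.14 to 0.27).

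The 8 monocyte and macrophage markers summed to 1231 to 1495 CPM in TDB tumors, against 376 to 468 CPM in vehicle tumors, and of 7 at the filter's value in all tumors 4 rose and 3 did not pass (median 0.75). Cd14, the lipopolysaccharide co-receptor, made up most of the sum in TDB tumors, so the sum largely follows that gene. Cd14 was at 1041 ± 207 CPM in TDB tumors and 204 ± 10.7 CPM in vehicle tumors (log2 fold change 2.49, edgeR adjusted p 8.8e-06). Ly6c2, a monocyte surface protein with near-identical relatives, had 441 counts over TDB tumors and 1 over vehicle tumors. Fcgr1 and Csf1r, an Fc receptor and the growth factor receptor of the lineage, rose by 2.5 and 1.09 (edgeR adjusted p 6.8e-06 and 0.00026). Lyz2 and Adgre1 did not pass (0.29 and 0.088), though Adgre1 did without the filter (0.043). None of the 8 passed in liver, where Fcgr1 (log2 fold change 1.09, edgeR adjusted p 0.26) passed with DESeq2 (0.043) and with all 12 libraries in one fit (0.039). Whether these cells carry part of the Pigr transcript was not tested.

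18 annotated genes, Pigr included, have a start within 200 kb of that of Pigr. Of the others, Pfkfb2, Yod1 and AA986860 reached the filter's value in all tumors, and the first 2 rose. Gm15848 and Il10 reached it in TDB tumors alone. 6 more (Zp3r, Gm29427, C4bp-ps1, Gm37163, Gm28857 and Gm28856) had at most 16 counts in any group. Gm15848, an antisense transcript on the minus strand that begins 2.6 kb upstream of Pigr and overlaps the span of Fcamr, had 2.16, 2.79 and 0.751 CPM in TDB tumors and no count in vehicle tumors. It was at least 42.5-fold higher, and it too was highest in TDB tumor 2 and lowest in TDB tumor 3. In livers it had 5 counts with TDB and 13 with vehicle, although Pigr was high in both. Without a stated strand setting, its reads cannot be told apart from reads of Fcamr in the stretch that they share.

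On the other side, Il10, an anti-inflammatory cytokine gene 193.2 kb downstream, had 52 counts over TDB tumors and 1 over vehicle tumors, 45.4-fold by counts (95% counting interval 7.8 to 1830). Its relatives Il24 and Il19 had 15 and 13 counts over TDB tumors, against 1 and 0 over vehicle tumors, and Il20 had none in any library. Upstream, Pfkfb2, an enzyme that sets glycolytic flux, was at 21.7 ± 1.92 CPM in TDB tumors and 15.9 ± 1.77 CPM in vehicle tumors (log2 fold change 0.58, edgeR adjusted p 0.0062). Yod1, a deubiquitinase, rose by 0.44 (edgeR adjusted p 0.032). The 2 genes overlap in annotation, so their reads are not fully separate. The Pfkfb2 call ended with all 12 libraries in one fit (0.46), and so did that of Yod1 (0.44), which also ended without TDB tumor 2 or 3 or vehicle tumor 1 or 3 (0.0504 to 0.1) and with upper quartile scaling (0.057).

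AA986860 was at 6.76 ± 0.503 CPM in TDB tumors and 6.08 ± 1.19 CPM in vehicle tumors and did not pass (edgeR adjusted p 0.28). C4bp, a liver-made complement inhibitor whose start lies 165.1 kb upstream, had 784, 935 and 768 CPM in TDB livers, against 705, 961 and 696 CPM in vehicle livers. In tumors it had 0 counts with TDB and 4 with vehicle. This second liver gene of the region was thus at or near 0 in all tumors.

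**Figure D4:**
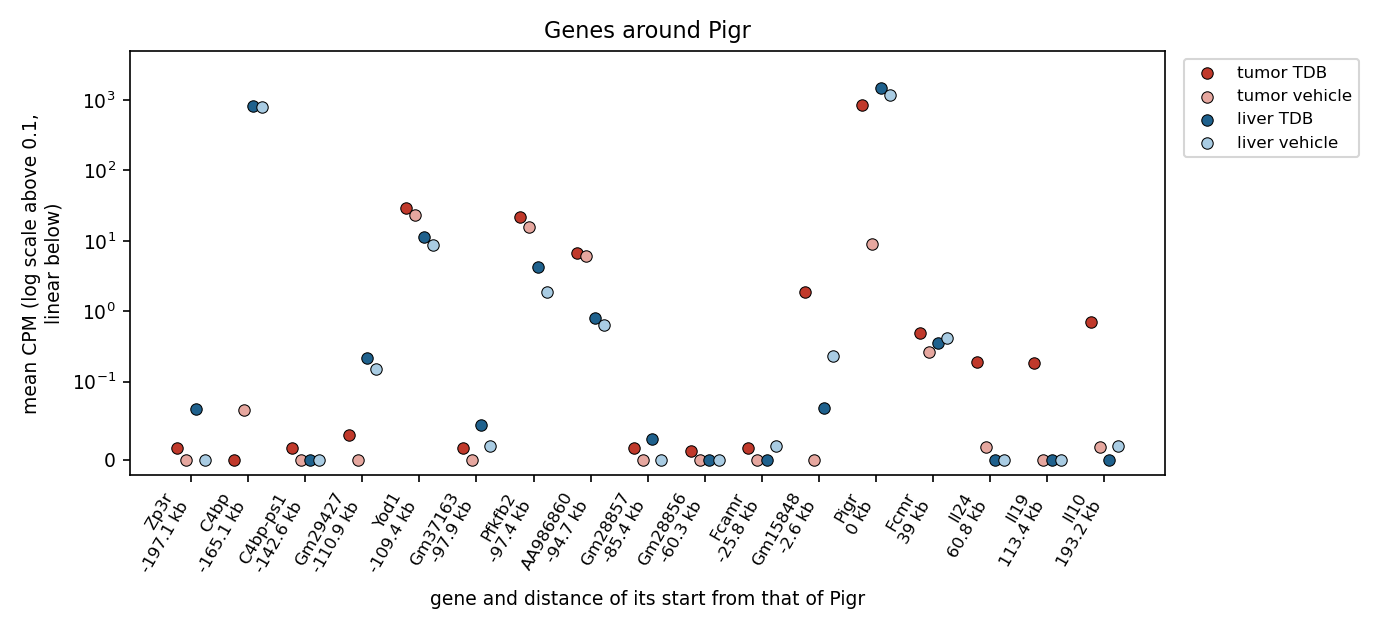
Mean CPM of Pigr and 16 neighbours in each of the 4 groups (n = 3 each), ordered by the distance of their starts from that of Pigr, on an axis that is linear below 0.1 and logarithmic above. Pigr stands at 845 CPM in TDB tumors and 9.05 CPM in vehicle tumors, C4bp is high in liver alone, and Il20, at 0 in all libraries, is left out.

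The genes whose profile was most like that of Pigr were found by the root mean square difference of centred log2(CPM + 0.5) over the 12 libraries, among 12607 genes tested in all 3 comparisons. As they were picked by this likeness, they are described without a test. The nearest was Dnase1l3, a secreted nuclease, at a distance of 0.57 on the log2 scale, where the median gene lay at 3.4. It had 42.9, 32.1 and 36.6 CPM in TDB tumors, against 0.337, 0.238 and 0.228 CPM in vehicle tumors. In livers it had 134, 160.5 and 214 CPM with TDB, against 99.9, 65.5 and 106 CPM with vehicle. Like Pigr, it was lowest in the vehicle tumors.

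Gm4951 followed at 0.67 and C4b, complement component C4, at 0.88. Gm4951 averaged 155 ± 29.1 CPM in TDB tumors, 0.377 ± 0.219 CPM in vehicle tumors, 151 ± 90.1 CPM in TDB livers and 65.9 ± 14.5 CPM in vehicle livers. C4b averaged 325 ± 46.9 CPM in TDB tumors, 18.2 ± 8.92 CPM in vehicle tumors, 1203 ± 540.1 CPM in TDB livers and 738 ± 228 CPM in vehicle livers (SD, n = 3 each). The next were AW112010 (1.05), the lectin gene Lgals9 (1.11), complement factor B gene Cfb (1.13), the complement protease gene C1s1 (1.14) and the ISG15-conjugating enzyme gene Ube2l6 (1.17). Of the 8, 3 encode complement proteins. With a pseudocount of 0.1, 5 of the 8 were again among the nearest 8.

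**Figure D5:**
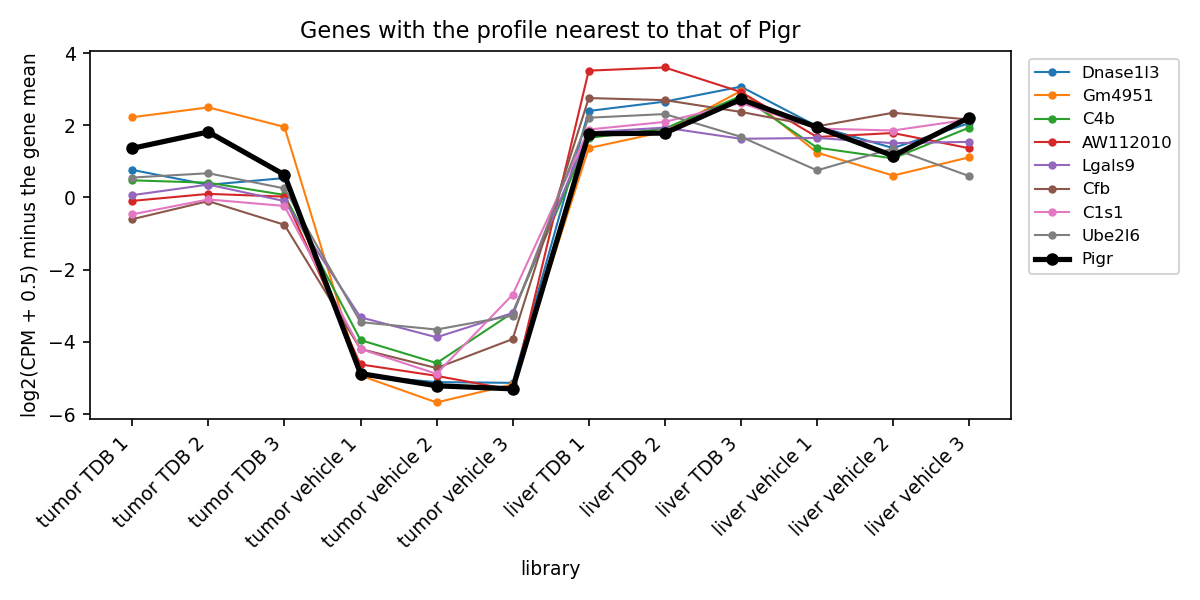
Log2(CPM + 0.5) of Pigr (black) and the 8 genes nearest to it, each minus its own mean over the 12 libraries, by library, with lines drawn to guide the eye. All 9 are lowest in the vehicle tumors, and Pigr runs above most of the others in TDB tumors 1 and 2.

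Set among liver genes, Pigr had the highest tumor log2 fold change of 825 genes with at least 100 CPM in both liver groups and a liver log2 fold change within 0.5 of 0. This setting follows the choice of the gene and is given without a test. The median tumor log2 fold change of these genes was -0.06, and 15 of them reached 2. After Pigr at 6.68 came F10, coagulation factor X, at 5.83, C3, the central complement component, at 5.54, and Orm1, an acute-phase protein, at 5.02. Apof, a lipoprotein component, stood at 4.54, Kynu, a tryptophan-degrading enzyme, at 3.73, Lgals9 at 3.72 and B2m at 3.68.

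These genes differed from Pigr in the level that they reached in tumors. F10 was at 10 ± 2.94 CPM in TDB tumors and 0.188 ± 0.0474 CPM in vehicle tumors, against livers at 754 ± 195 CPM with TDB and 824 ± 103 CPM with vehicle. C3 was at 271 ± 42.6 CPM in TDB tumors and 6.34 ± 3.48 CPM in vehicle tumors, with 9500.4 ± 4801 CPM in TDB livers and 6186 ± 1667 CPM in vehicle livers. Apof stayed at 4.14 ± 1.9 CPM in TDB tumors and 0.189 ± 0.0519 CPM in vehicle tumors, and livers held 1383 ± 205 CPM with TDB and 1031 ± 97.1 CPM with vehicle (SD, n = 3 each). Pigr and B2m were the 2 of these 8 in which the TDB tumors overlapped the TDB livers in plain CPM. B2m had 2816, 3454 and 2273 CPM in TDB tumors, against 297, 176 and 259 CPM in vehicle tumors, and 2351, 2587 and 2042 CPM in TDB livers, against 1641, 1525 and 1652 CPM in vehicle livers.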

How the data were processed

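The analysis used 12 bulk RNA-seq libraries of tumor and liver (tumor TDB, tumor vehicle, liver TDB and liver vehicle, 3 each), grouped by their titles. With 3 mice per treatment by the series text, the spread behind each p-value within a tissue is that between mice. Both tissues come from the same mice, but the title numbers are not said to tie them, and the libraries were treated as unpaired. The test of the difference thus took tumor and liver of the same mouse as independent, and its p-values ignore any link between them. Pigr, the gene lists and the tests were chosen with earlier results of these data known.

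The authors deposited whole-number counts per gene, with no scaling. Per the submitters' processing notes, GSNAP, limma and GRCm38 were used, in a role and version not named there. How reads were counted, with which annotation and strand setting, is not given in the sources used here. A second deposited table of normalized values was not used. Symbols and positions come from GENCODE M21, which matched 52489 of 52636 identifiers. The other 147 held at most 0.0064% of the counts of a library. Replicates differed from each other by more than counting error in each group.

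CPM are counts scaled to a library total of 1000000, and TPM use exonic gene length. Counts were tested in R 4.3.3 with edgeR 4.0.16 (TMM scaling, filterByExpr at its defaults, a count of 10 and a total of 15, quasi-likelihood F test, Benjamini-Hochberg adjustment over all genes tested, threshold 0.05). TDB was compared with vehicle within each tissue over 6 libraries, and the difference of both effects over 12. The code was tested on simulated data. Alternatives were other scaling, no filter, DESeq2 1.42.0, voom in limma 3.58.1, a replicate block, 1 fit over 12 libraries and leaving out each library.

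Named genes were Pigr, the cargo genes, inducers, transcription factors, Fcmr, Fcamr and Fcgrt. From each other list up to 4 genes past the threshold in tumor and 2 in liver with the largest change were named, and up to 2 that did not pass with the highest level. 1 further transcription factor and its motif are not reported here. The genes within 200 kb, the 8 most alike and the 8 with the highest tumor change in the liver setting were added. Lower bounds use a floor of 3 counts over a group, and bounds and 95% intervals of count ratios (exact conditional binomial) cover counting error only.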

Additional observations from a re-analysis of the deposited data

Results flagged for a closer look

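Of the named genes that were not picked for a profile like that of Pigr, 20 had an effect of TDB that differed between tumor and liver in edgeR's test of the difference itself (adjusted p under 0.05, over 16557 genes). In 17 the tumor effect was above the liver effect, and in 3 it was below. That test took tumor and liver of the same mouse as independent. The 9 whose call was kept in every alternative were B2m (3.2 on the log2 scale), Cd14 (2.87), Cd3d (4.01), Cd3e (7.6), Igkc (4.59), Irf1 (2.84), Ltb (3.09), Ly6c2 (6.56) and, below 0, Cd300lg (-1.95). The values for Cd3d, Cd3e, Ly6c2, Ccr9 and Gm15848 rest on 0 to 3 counts in vehicle tumors and depend on the prior count of the fit, so their size is no bound. No vehicle tumor reached the filter's value for these 5, Jchain, Cd2 or Cd300e, and only 1 did for Igkc, Ltb and Itgb7. The difference calls of all these genes, kept or lost, are a description only.

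The other 11 lost the call in at least 1 alternative. Among cytokines these were Tnf (2.52), without TDB tumor 2, vehicle tumor 1 or 2 or vehicle liver 3 (edgeR adjusted p 0.054 to 0.074), and Il1b (2.33), without TDB tumor 2 or 3, vehicle tumor 1 or vehicle liver 1 or 3 (0.051 to 0.072). Among cargo genes Ighm (1.47) lost it without TDB tumor 1 or 3, vehicle tumor 2 or 3, TDB liver 2 or vehicle liver 1 or 2 (0.0501 to 0.084). Jchain (5.47) lost it without TDB tumor 2, vehicle tumor 2 or 3, TDB liver 1 or 2 or vehicle liver 1 or 2 (0.054 to 0.11).

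Among homing genes Itgb7 (3.07) lost it without TDB tumor 1 or 2 or vehicle tumor 3 (0.054 to 0.062), and Ccr9 (4.54) without vehicle tumor 2 (0.051). Cd2 (3.53) lost it without vehicle tumor 1 (0.059), and Cd300e (2.65) without vehicle tumor 1 (0.056). Gm15848 (9.73), the transcript upstream of Pigr, lost it without TDB tumor 1 or 2, any vehicle tumor, TDB liver 1 or vehicle liver 1 or 3 (0.059 to 0.25).

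Derl3 (-2.44) and Lbp (-1.53) were the others below 0. Derl3 was at 22.7 ± 4.87 CPM in TDB livers and 3.97 ± 2.16 CPM in vehicle livers (SD, n = 3 each), and its call ended without any TDB tumor, vehicle tumor 2 or 3 or TDB liver 2 (0.053 to 0.089). Lbp was at 477 ± 163 CPM in TDB livers and 197 ± 30.7 CPM in vehicle livers. Its call ended without any TDB tumor, vehicle tumor 1 or 2, TDB liver 2 or vehicle liver 1 or 2 (0.051 to 0.095).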

How the results depend on the processing

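The tumor log2 fold change of Pigr was 6.6 to 6.69 under the other scalings, filter and tools, and 6.37 to 6.94 without 1 library. In liver it was 0.15 to 0.21 and -0.11 to 0.42, and the difference of effects was 6.36 to 6.5 and 6.11 to 6.83. Genes called numbered 2942 to 4860 in tumor, 14 to 163 in liver and 241 to 696 in the difference without 1 library, against 4456, 73 and 412 with all. Fitting the 12 libraries together gave 1695 calls in tumor and 323 in liver. In liver, no filter gave 145 and DESeq2 317, and in the difference DESeq2 gave 859; the cause was not tested. Liver counts were lowest without vehicle liver 2 (14) and highest without TDB liver 3 (163).

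Whether the title numbers pair the samples could not be settled from the counts, since tissues of the same mouse need not deviate together. Deviations of same-numbered TDB and vehicle libraries correlated at 0.031, 0.011 and 0.337 in tumor and -0.097, 0.457 and 0.615 in liver over 11416 genes, and those of tumor and liver at -0.065 to 0.141, and not every library correlated best with its own number. With the replicate block Pigr stood at 6.61 in tumor, 0.21 in liver and 6.37 in the difference, and 4622, 350 and 258 genes were called. Of the tested genes named here, the block ended the tumor calls of Saa3 and Csn2 and the difference calls of Ighm, Jchain, Itgb7, Ccr9, Cd2 and Lbp (edgeR adjusted p 0.051 to 0.1). It added calls for Il13ra1, Trem2, Ltf, Lyz2 and Adgre1 in tumor, for Tlr3, Derl3, Lbp, Saa3, Xdh and Elf3 in liver and for Igha in the difference (0.00016 to 0.0499).

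Of the tested calls named here, 32 of 54 in tumor, 0 of 3 in liver and 9 of 20 in the difference were kept in every alternative, and none reversed. The numbers for tumor and for the difference include genes that TDB tumors alone brought past the filter. Both are thus a description only and no measure of how stable the calls are. With 3 libraries a group, depth limits Ifng, Il4, Il13, Il17a, Il17f, Fcmr and Fcamr, which were not testable in at least 1 tissue.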
